A study of Saccharomyces cerevisiae with 8 samples.

Results

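The autophagy genes of the yeast Saccharomyces cerevisiae were followed in strains with and without ESA1, the gene of the histone acetyltransferase in the NuA4 complex, on which yeast normally depends for life. Members were the probe sets whose gene symbol in the platform annotation is ATG followed by a number, and 34 of the 10928 probe sets on the array met this rule. They read 34 of the 5449 S. cerevisiae genes that the array names singly, on 13 chromosomes, and the RefSeq gene table gave the same symbol for all 34. A further 17 probe sets carry lower-case atg symbols of genes outside the S. cerevisiae table. They are no members, and none of them reached the background bound on any array.

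Gene expression was measured with Affymetrix arrays, on which a set of short probes reads each gene and is summarised as 1 signal. The double mutant (esa1 sup2-) carries both mutations and had 3 arrays. The single mutant (ESA1 sup2-) keeps ESA1, carries sup2- alone and had 3 arrays. The wild type (ESA1 SUP2) had 2 arrays. Both mutants therefore share sup2-, the bypass suppressor that lets yeast live without ESA1. The labels give neither the identity of SUP2 nor the strain background. All cultures grew overnight to saturation at 30 °C in 10 mL of rich medium that held 2% glucose. Each array received label made from 5 µg of total RNA. Whether replicates are separate cultures is not stated, so the p-values reflect the spread between these samples alone, and that spread may be technical.

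Autophagy carries cytoplasm and organelles to the vacuole, the degradative compartment of yeast, inside a newly formed double membrane. In yeast it runs at a low level in rich medium and is induced when nutrients run out. The Atg1 kinase complex starts the process, Atg9 vesicles bring the first membrane, a phosphatidylinositol kinase complex marks it, and a pair of ubiquitin-like systems attach Atg8 to its lipid. Receptor proteins then tie particular cargo, such as mitochondria, peroxisomes or vacuolar enzymes, to Atg8. Esa1 is known in yeast to acetylate Atg3, the enzyme that joins Atg8 to lipid. ATG8 transcription in yeast is known to be held down by the DNA-binding protein Ume6 with the Sin3-Rpd3 histone deacetylase complex.

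The signal of ESA1 was 1.19, 3.34 and 0.267 on the double-mutant arrays, against 819, 894 and 877 in the single mutant and 1216 and 1067 in the wild type. The double-mutant arrays thus matched their labels, while ESA1, present in both other strains, could not check theirs. The double-mutant values lay below the background bound, the 99th percentile on each array of probe sets for genes outside the S. cerevisiae table, which ran from 8.23 to 12.4. All 34 members lay above this bound on all 8 arrays. Arrays of the double mutant differed most among themselves, with an SD of log2 differences over tested probe sets of 0.262 to 0.323. In the single mutant, replicate 2 stood apart from replicates 1 and 3 (0.210 and 0.206, against 0.0900 between these), and the wild-type arrays differed by 0.111. All arrays were scanned on 1 day, but each strain was processed on its own fluidics station, so station and strain cannot be told apart.

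Most autophagy genes were lowest in the double mutant, intermediate in the single mutant and highest in the wild type. For 25 of the 34 members every double-mutant array lay below every single-mutant array, and these below both wild-type arrays. The same order was seen for 19.2% of all 5498 S. cerevisiae probe sets. Only ATG27 among the members ran fully the other way, a pattern of 15.6% of all probe sets. In ATG18 and ATG41 the single mutant lay above both other strains, as in 11.8% of all probe sets. Relative to the wild-type mean, the median member stood at -0.83, -1.12 and -0.93 on the log2 scale on the double-mutant arrays and at -0.39, -0.38 and -0.40 on the single-mutant arrays. The median of all S. cerevisiae probe sets stayed between -0.08 and 0.01 on all 8 arrays on that scale. Each array read the RNA of a whole culture, so less RNA of a gene per cell and fewer cells that express it cannot be told apart.

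**Figure D1:**
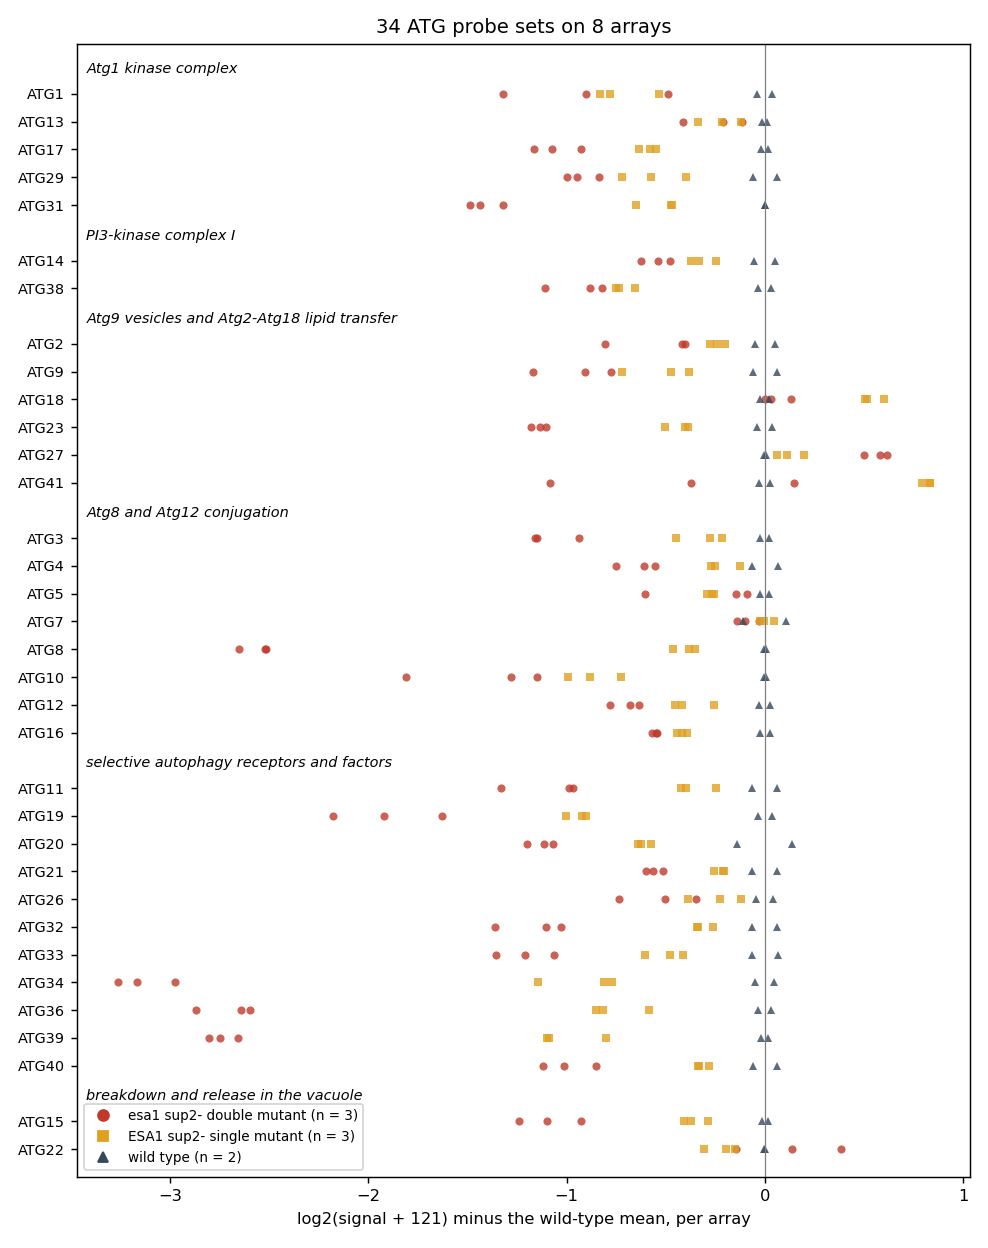
Signal of each of the 34 ATG probe sets on each array, as log2(signal + 121) minus the wild-type mean (horizontal axis), with genes grouped by role down the page. Red circles are the 3 double-mutant arrays, yellow squares the 3 single-mutant arrays and dark triangles the 2 wild-type arrays. For 25 genes the red points lie left of the yellow and the yellow left of the dark ones, while ATG27 runs the other way and the yellow points of ATG18 and ATG41 lie farthest right.

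Setting the double mutant against the single mutant addresses the loss of ESA1, since sup2- is in both strains. ATG8, the ubiquitin-like protein of the autophagosome membrane, and the receptor genes ATG34, ATG36 and ATG39 fell most, with log2 fold changes of -2.23 to -1.74. Folds are on a scale of log2(signal + 121), which understates every change, and most of all that of dim genes. ATG41 had a log2 fold change of -1.26, ATG27 and ATG22 rose, and ATG1, ATG5, ATG7 and ATG13 were not called. Groups did not overlap for 30 members, 28 lower and 2 higher, where 39.1% of all S. cerevisiae probe sets were lower and 29.8% higher without overlap.

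In the fit of all tested probe sets, which left out the dimmest 20%, 26 members were tested and 20 were lower and 2 higher in the double mutant than in the single mutant at a limma adjusted p under 0.05. Among all 4398 tested probe sets 35.8% were lower and 31.8% higher. With no filter all 34 members could be tested, and 27 were lower, 2 higher and 5 not called, against 36.9% lower and 27.7% higher of all probe sets. The median log2 fold change of the 26 was -0.61, and that of all tested probe sets was -0.02. At least 2-fold decreases on this scale were seen for 5 members, against 6.68% of tested probe sets. By role, with no filter, the median was -0.74 for receptors and selective factors, -0.46 for Atg9 vesicles and lipid transfer, -0.37 for conjugation and -0.36 for the Atg1 complex, against -0.06 for all probe sets. Of the 20 lower members, 13 were called under every alternative in which they were tested. Quantile normalization or scaling on poly-A control probe sets, or both, ended the calls of ATG10, ATG12, ATG18 and ATG21. The calls of ATG2, ATG26 and ATG38 also ended when certain single arrays were left out. For ATG2 these were each of the single-mutant arrays, for ATG26 replicates 2 and 3 of both mutants and either wild-type array, and for ATG38 double-mutant replicate 2 and any single-mutant or wild-type array. The higher call of ATG22 ended without any array other than double-mutant replicate 3. A fit of only the strains compared, a block for replicate number and hybridization control scaling ended it as well (limma adjusted p of 0.0021 to 0.14 under its alternatives).

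Setting the single mutant against the wild type addresses sup2- alone, with ESA1 in both strains. ATG39, ATG19, ATG34 and ATG10 had the largest decreases, with log2 fold changes of -0.996 to -0.87, followed by ATG36, ATG38 and ATG1. ATG41 and ATG18 rose. Groups did not overlap for 33 members, 30 lower and 3 higher, against 38.7% lower and 37.9% higher of all S. cerevisiae probe sets.

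Among the 26 tested members 17 were lower and 2 higher than in the wild type at a limma adjusted p under 0.05, where 22.1% of all tested probe sets were lower and 28.5% higher. With no filter 24 of 34 were lower, 2 higher and 8 not called, against 23.4% lower and 26.1% higher of all. The median log2 fold change of the 26 was -0.34, against 0.01 for all tested probe sets, and 0 members fell 2-fold on this scale, against 1.39% of tested probe sets. With no filter the median was -0.56 for the Atg1 complex, -0.50 for receptors and selective factors, -0.34 for conjugation and -0.06 for Atg9 vesicles and lipid transfer, against -0.01 for all probe sets. The count of 17 depended on single arrays: 10 members were lower when either wild-type array was left out, 11 without single-mutant replicate 3 and 15 without single-mutant replicate 2, the array that stood apart. It was 7 with arrays scaled on poly-A controls and 11 on hybridization controls. Each of these settings tested 26 members, and lower calls among all 4398 tested probe sets fell as well. From 974 in the main fit they fell to 520 and 549 without wild-type replicates 1 and 2. Without single-mutant replicates 3 and 2 they numbered 734 and 903. With poly-A and hybridization scaling they numbered 302 and 545. Of the 17, only ATG10, ATG19, ATG34, ATG36, ATG38 and ATG39 were called under every alternative in which they were tested.

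The double mutant against the wild type spans both genetic differences. ATG34, ATG39, ATG36 and ATG8 stood at 7.97%, 11.9%, 7.67% and 13.9% of their wild-type mean signal, and ATG19 at 22.6%. Among the 26 tested members 19 were lower and 1, ATG27, was higher at a limma adjusted p under 0.05, where 36.6% of all tested probe sets were lower and 37.9% higher. With no filter 27 of 34 were lower and 1 higher, against 38.9% lower and 33.8% higher of all. Groups did not overlap for 29 lower members and 1 higher member, against 43.3% and 38.1% of all S. cerevisiae probe sets. At least 2-fold decreases on the log2(signal + 121) scale were seen for 12 members, against 11.5% of tested probe sets. The median of the 26 was -0.97, against 0.01 for all tested probe sets. This comparison shares its arrays with the others, and 16 of the 19 lower members were called under every alternative in which they were tested.

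**Figure D2:**
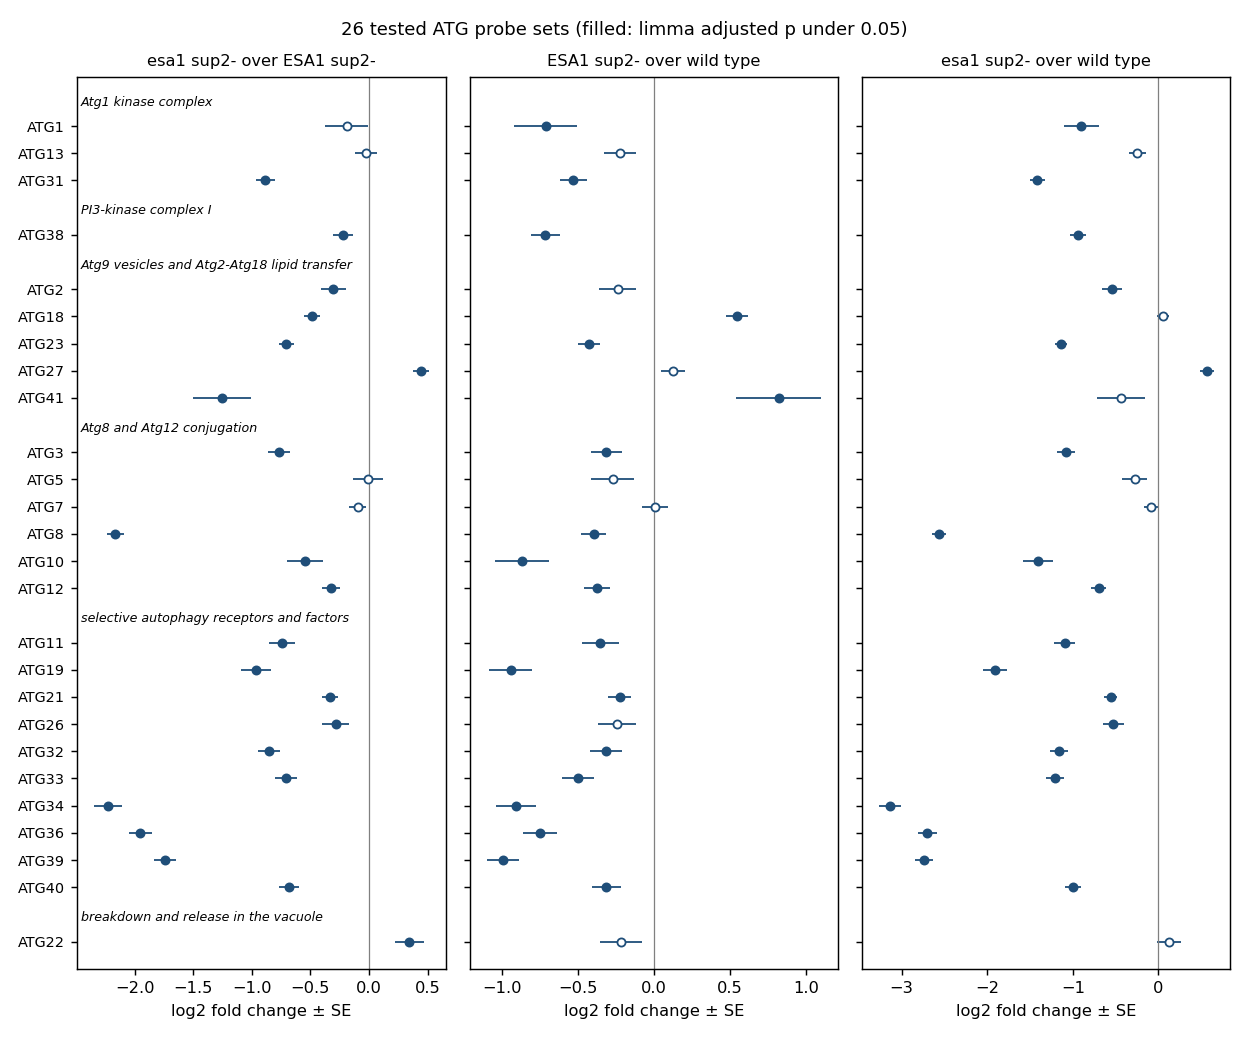
Log2 fold change with its SE (horizontal axis) of the 26 tested ATG probe sets, grouped by role, for the double mutant over the single mutant (left), the single mutant over the wild type (middle) and the double mutant over the wild type (right). Filled points passed a limma adjusted p under 0.05. Most points lie left of 0 in each panel, ATG8, ATG34, ATG36 and ATG39 lie farthest left in the first panel, and ATG41 and ATG18 are the filled points right of 0 in the middle panel.

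Receptors of selective autophagy held 3 of the 4 largest decreases in the double mutant against the single mutant. ATG34 encodes a receptor that carries alpha-mannosidase to the vacuole during starvation. Its signal was 290.0, 216 and 239 in the double mutant, against 1776, 1342 and 1723 in the single mutant and 3007 and 3220.2 in the wild type. The 3 strains did not overlap. Its log2 fold change came to -2.23 (SE 0.12, limma adjusted p = 9.9e-07) for the double over the single mutant and -0.91 (SE 0.13, limma adjusted p = 6.2e-04) for the single mutant over the wild type. By size of decrease it ranked 63 in the first and 87 in the second of these comparisons among 4398 probe sets.

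ATG19 (YOL082W), the paralogue next to ATG34 (YOL083W) on chromosome XV, encodes the receptor of the cytoplasm-to-vacuole targeting pathway, which delivers vacuolar enzymes in growing cells. It had 572, 445 and 352 in the double mutant, against 1024, 1009 and 949 in the single mutant and 2076 and 1968 in the wild type, again without overlap. The log2 fold change of ATG19 was -0.97 (SE 0.13, limma adjusted p = 1.7e-04) for the double over the single mutant and -0.94 (SE 0.14, limma adjusted p = 7.3e-04) for the single mutant over the wild type. For ATG19 these were thus of like size, whereas ATG34 had -2.23 and -0.91. The comparisons share the single-mutant arrays, and the difference between them was not tested.

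ATG36, the receptor for peroxisomes, read 118, 110.2 and 76.5 in the double mutant, against 842, 679 and 698 in the single mutant and 1355 and 1289.7 in the wild type. Its double-mutant mean was 13.7% of the single-mutant mean, the lowest such share among the 34 members. The log2 fold changes of ATG36 were -1.95 (SE 0.10, limma adjusted p = 8.2e-07) for the double over the single mutant and -0.75 (SE 0.11, limma adjusted p = 7.0e-04) for the single mutant over the wild type. ATG39, a receptor for the nuclear envelope and the endoplasmic reticulum, read 421, 389 and 369.7 in the double mutant, against 1477, 1843 and 1488 in the single mutant and 3340.0 and 3260.3 in the wild type. Single-mutant replicate 2 was the highest of its strain for ATG39 and the lowest for ATG34 and ATG36. For ATG39 the log2 fold changes were -1.74 (SE 0.09, limma adjusted p = 1.2e-06) and -0.996 (SE 0.11, limma adjusted p = 1.3e-04) in the same order of comparisons.

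The mitochondrial receptor and a further reticulum receptor had smaller fold changes. ATG32, the receptor for mitochondria, had 344, 321 and 249 in the double mutant, against 631, 671 and 629 in the single mutant and 871 and 788 in the wild type. ATG33, a mitochondrial outer membrane protein that also acts in mitophagy, had 1497, 1340.3 and 1198 in the double mutant, against 2419, 2101 and 2302 in the single mutant and 3108 and 3411 in the wild type. In neither gene did any strains overlap, and in the double over the single mutant ATG32 was at -0.85 (SE 0.09, limma adjusted p = 6.8e-05) and ATG33 at -0.71 (SE 0.09, limma adjusted p = 1.8e-04). ATG40, a second receptor for the endoplasmic reticulum, had 807, 649 and 709 in the double mutant, against 1257, 1212 and 1207 in the single mutant and 1626 and 1487 in the wild type. The ATG40 difference between the mutants was -0.68 (SE 0.09, limma adjusted p = 1.3e-04). For the single mutant over the wild type ATG33 was at -0.50 (SE 0.11, limma adjusted p = 0.0044), ATG40 at -0.32 (SE 0.10, limma adjusted p = 0.022) and ATG32 at -0.31 (SE 0.11, limma adjusted p = 0.035). All 3 of these calls ended without wild-type replicate 2. Those of ATG40 and ATG32 also ended without wild-type replicate 1 or single-mutant replicate 3, and that of ATG32 without single-mutant replicate 1. Poly-A control scaling ended all 3 calls as well, and hybridization control scaling those of ATG40 and ATG32. A pseudocount of 1 and a block for replicate number also ended that of ATG32. Over all alternatives in which each gene was tested, limma's adjusted p was 0.0012 to 0.14 for ATG33, 0.0031 to 0.46 for ATG40 and 0.0045 to 0.42 for ATG32.

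**Figure D3:**
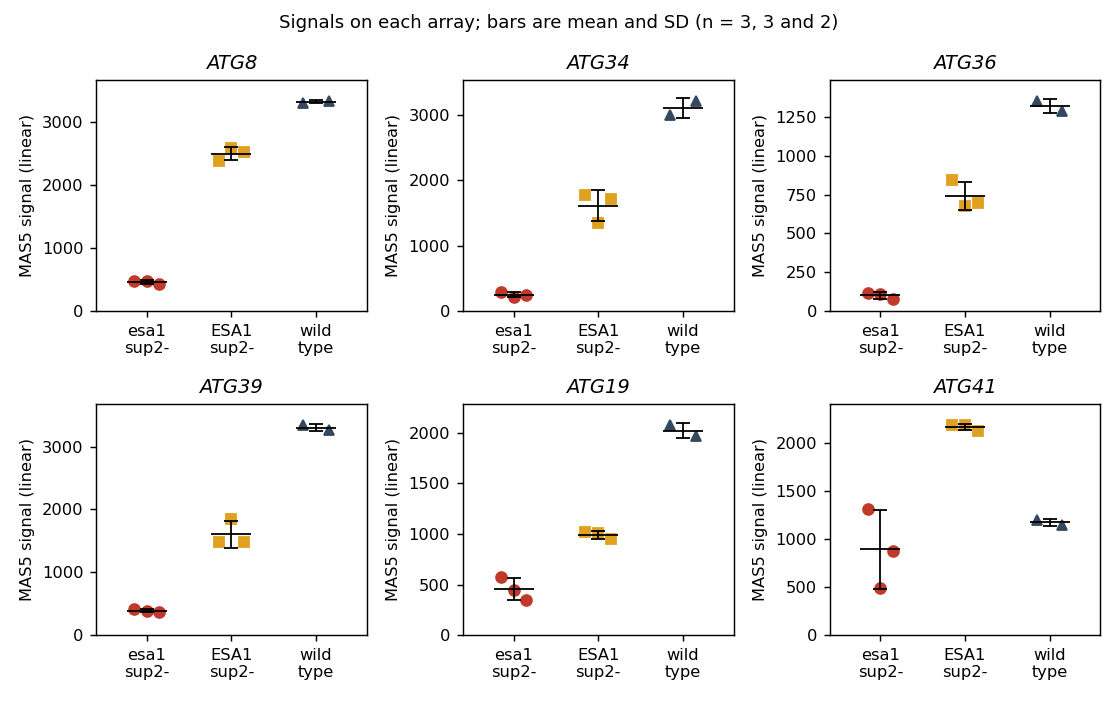
MAS5 signal on a linear scale (vertical axis) on each array for ATG8, ATG34, ATG36, ATG39, ATG19 and ATG41, with the double mutant left, the single mutant in the middle and the wild type right. Points are arrays, horizontal bars the mean and error bars the SD (n = 3, 3 and 2). In 5 genes the strains step upward from left to right without overlap, and in ATG41 the single mutant is the highest.

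Other genes of selective autophagy include ATG11, the scaffold that joins receptors to the Atg1 complex. ATG11 had 483, 349 and 476 in the double mutant, against 777, 876 and 762 in the single mutant and 1011 and 1114 in the wild type, without overlap. Its log2 fold change came to -0.74 (SE 0.11, limma adjusted p = 3.4e-04) for the double over the single mutant and -0.35 (SE 0.12, limma adjusted p = 0.038) for the single mutant over the wild type. The ATG11 call against the wild type ended when either wild-type array, or single-mutant replicate 1 or 3, was left out. It also ended with a pseudocount of 1, a block for replicate number and poly-A or hybridization control scaling (limma adjusted p of 0.0054 to 0.355 under its alternatives). ATG21, a phosphoinositide-binding protein that helps to place the lipid-conjugation machinery, had 477, 515 and 492 in the double mutant, against 638, 663 and 664 in the single mutant and 826 and 747 in the wild type. The strains did not overlap, though the steps of ATG21 were small, at -0.33 (SE 0.07, limma adjusted p = 0.0021) in the double over the single mutant. ATG26, a sterol glucosyltransferase needed for pexophagy in the yeast Pichia pastoris, had 857, 624 and 756 in the double mutant, against 829, 1023 and 942 in the single mutant and 1083 and 1159 in the wild type. Here the mutants overlapped, through double-mutant replicate 1, and the difference was -0.28 (SE 0.11, limma adjusted p = 0.049). The sorting nexin gene ATG20, left out as dim, had 139, 124 and 148 in the double mutant, against 257, 245 and 241 in the single mutant and 499 and 390.1 in the wild type. Of these 11 genes for receptors and selective factors, 10 were lower and none higher in the double mutant than in the single mutant with no filter, against 36.9% and 27.7% of all probe sets. Likewise 10 were lower and none higher in the single mutant against wild type, against 23.4% and 26.1% of all. The gene not called was ATG26 in both.

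The conjugation genes were uneven. ATG8 had 481, 479.9 and 428 in the double mutant, against 2382, 2583 and 2527 in the single mutant and 3313 and 3341 in the wild type. Arrays within a strain lay close together, and the strains did not overlap. Its log2 fold change came to -2.17 (SE 0.07, limma adjusted p = 5.3e-08) for the double over the single mutant, rank 65 of 4398 by size of decrease, and -0.40 (SE 0.08, limma adjusted p = 0.0035) for the single mutant over the wild type, rank 659. The smaller change was not called under poly-A control scaling (limma adjusted p = 0.29, range 9.3e-04 to 0.29 under its alternatives).

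ATG3, which joins Atg8 to its lipid, had 465, 382 and 385 in the double mutant, against 844, 699.8 and 805 in the single mutant and 982 and 1017 in the wild type. It was lower without overlap in each step, at -0.77 (SE 0.09, limma adjusted p = 9.8e-05) for the double over the single mutant and -0.31 (SE 0.10, limma adjusted p = 0.03) for the single mutant over the wild type. The second of these calls ended without single-mutant replicate 2 or 3 or either wild-type array. It also ended with a block for replicate number and with poly-A or hybridization control scaling (limma adjusted p of 0.011 to 0.44 under its alternatives). ATG10, which joins Atg12 to Atg5, had 156, 317 and 279.7 in the double mutant, against 406, 466 and 368 in the single mutant and 854 and 847 in the wild type. The double-mutant arrays of ATG10 spread widely, with replicate 1 the lowest. Its log2 fold change came to -0.54 (SE 0.16, limma adjusted p = 0.013) for the double over the single mutant and -0.87 (SE 0.18, limma adjusted p = 0.0035) for the single mutant over the wild type. ATG12, the second ubiquitin-like protein, had 224, 214 and 191 in the double mutant, against 328, 271 and 279.7 in the single mutant and 425 and 405 in the wild type. The ATG12 steps were small and without overlap, at -0.32 and -0.38 (limma adjusted p = 0.0045 and 0.0057) in the same comparisons. The second ATG12 call ended without wild-type replicate 1 and with poly-A or hybridization control scaling (limma adjusted p of 0.0023 to 0.21 under its alternatives).

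ATG7 and ATG5 stood apart from these partners. ATG7, the activating enzyme of both conjugation systems, had 415, 376 and 388 in the double mutant, against 425, 443 and 417 in the single mutant and 386 and 468 in the wild type, and the wild-type arrays spanned all single-mutant values. Its log2 fold change came to -0.10 (SE 0.08, limma adjusted p = 0.28) for the double over the single mutant and 0.01 (SE 0.08, limma adjusted p = 0.95) for the single mutant over the wild type, and its sign turned under quantile normalization and median centring in both. ATG5, the protein to which Atg12 is attached, had 1193, 1245 and 835 in the double mutant, against 1066, 1094 and 1088 in the single mutant and 1356 and 1309.6 in the wild type. One double-mutant array, replicate 3, lay below all single-mutant arrays and the others above them. ATG5 was at -0.01 (SE 0.13, limma adjusted p = 0.96) for the double over the single mutant, and without this array the sign turned (0.15).

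The Atg1 kinase complex was lower in the single mutant than in the wild type in 4 of its 5 genes with no filter, against 23.4% of all probe sets. In the double mutant 3 of the 5 were lower than in the single mutant, against 36.9% of all. ATG1, the kinase itself, had 497, 226 and 344 in the double mutant, against 367, 479 and 385 in the single mutant and 724 and 770.4 in the wild type. The mutants overlapped, and both lay below the wild type. ATG1 was at -0.71 (SE 0.21, limma adjusted p = 0.018) in the single mutant over the wild type, a call that ended without either wild-type array or without single-mutant replicate 1 or 3 (limma adjusted p of 7.2e-04 to 0.099 under its alternatives). In the double over the single mutant it was at -0.19 (SE 0.18, limma adjusted p = 0.38), with a sign that turned under quantile normalization, with poly-A control scaling and without double-mutant replicate 2. Without double-mutant replicate 1 the same difference was called lower, at -0.40 (limma adjusted p = 0.040, range 0.040 to 0.99 under its alternatives). ATG13, its regulatory partner, had 389, 322 and 425 in the double mutant, against 347, 423 and 388 in the single mutant and 475 and 464 in the wild type. The mutants overlapped for ATG13 as well, and it was at -0.02 (SE 0.09, limma adjusted p = 0.84) and -0.22 (SE 0.10, limma adjusted p = 0.10) in the double over the single mutant and the single mutant over the wild type.

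Of the scaffold of this complex, ATG31 passed the filter. ATG31 had 346, 385 and 329 in the double mutant, against 787, 684 and 792 in the single mutant and 1141 and 1142 in the wild type. The strains did not overlap, and the log2 fold changes were -0.88 (SE 0.08, limma adjusted p = 2.1e-05) for the double over the single mutant and -0.53 (SE 0.09, limma adjusted p = 0.0013) for the single mutant over the wild type. Poly-A control scaling ended the second of these ATG31 calls (limma adjusted p of 7.0e-04 to 0.086 under its alternatives). The scaffold partners ATG17 and ATG29 were left out as dim. ATG17 had 96.9, 64.4 and 76.1 in the double mutant, against 156, 162 and 147 in the single mutant and 289 and 299 in the wild type. ATG29 had 62.8, 43.5 and 49.6 in the double mutant, against 128, 78.6 and 99.5 in the single mutant and 222 and 194 in the wild type. Both stepped down in the same order as ATG31, and with no filter they were at -0.47 (SE 0.07, limma adjusted p = 3.5e-04) and -0.36 (SE 0.09, limma adjusted p = 0.0052) for the double over the single mutant.

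Genes of Atg9 vesicles and lipid transfer held 3 of the 9 members outside the common order of strains, ATG18, ATG27 and ATG41. ATG23, a peripheral protein of Atg9 transport, had 205, 199 and 189 in the double mutant, against 415, 409 and 374 in the single mutant and 599 and 562 in the wild type, without overlap. The difference between the mutants was -0.71 (SE 0.06, limma adjusted p = 2.2e-05). ATG27, a membrane protein of the same vesicles, ran the other way with 1860.1, 1709.5 and 1818 in the double mutant, against 1230.2, 1276 and 1361 in the single mutant and 1169.5 and 1177 in the wild type. ATG27 was at 0.44 (SE 0.07, limma adjusted p = 5.4e-04) for the double over the single mutant, called under every alternative, and at 0.12 (SE 0.08, limma adjusted p = 0.22) for the single mutant over the wild type.

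ATG41, which acts in Atg9 movement, had 1313, 489 and 877 in the double mutant, against 2182, 2182 and 2122 in the single mutant and 1197 and 1148 in the wild type. The single-mutant arrays lay close together and above all others, while double-mutant replicates 1 and 2 were far apart on both sides of the wild type. Its log2 fold change came to -1.26 (SE 0.25, limma adjusted p = 0.0019) for the double over the single mutant and 0.82 (SE 0.28, limma adjusted p = 0.036) for the single mutant over the wild type. The second call ended when any of the 5 arrays of these strains was left out (limma adjusted p of 4.1e-05 to 0.15 under its alternatives). ATG18, the lipid-binding partner of Atg2, had 269.7, 243 and 235 in the double mutant, against 388, 385 and 419 in the single mutant and 241 and 229 in the wild type. Only the single mutant stood apart, at -0.49 (SE 0.06, limma adjusted p = 1.9e-04) for the double over the single mutant and 0.54 (SE 0.07, limma adjusted p = 4.3e-04) for the single mutant over the wild type. ATG2, which transfers lipid to the growing membrane, had 349, 239 and 354 in the double mutant, against 426, 411 and 398 in the single mutant and 486 and 529.6 in the wild type. Double-mutant replicate 2 was the lowest ATG2 value, and the log2 fold changes were -0.30 (SE 0.11, limma adjusted p = 0.033) and -0.24 (SE 0.12, limma adjusted p = 0.13) in the same comparisons.

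The kinase complex that makes phosphatidylinositol 3-phosphate was read through ATG38 and ATG14. ATG38, which holds the complex together, had 299, 222 and 281 in the double mutant, against 349, 323 and 319 in the single mutant and 637 and 603 in the wild type. The mutants lay close together, and the log2 fold change came to -0.22 (SE 0.09, limma adjusted p = 0.044) for the double over the single mutant and -0.72 (SE 0.10, limma adjusted p = 4.2e-04) for the single mutant over the wild type. Among the subunits that are no ATG members by symbol, the kinase gene VPS34 was at -0.50 (SE 0.07, limma adjusted p = 3.6e-04) for the double over the single mutant and VPS30, which is also known as ATG6, at -0.19 (SE 0.07, limma adjusted p = 0.035). VPS34 was at -0.25 (SE 0.08, limma adjusted p = 0.032) for the single mutant over the wild type, a call that ended without single-mutant replicate 1 or 3 or either wild-type array. It also ended with a block for replicate number and with poly-A or hybridization control scaling (limma adjusted p of 0.013 to 0.58 under its alternatives). For the double mutant over the wild type VPS34 was at -0.75 (SE 0.08, limma adjusted p = 3.7e-05) and VPS15, the kinase regulator, at -0.41 (SE 0.10, limma adjusted p = 0.0041). The VPS30 call ended without double-mutant replicate 3, single-mutant replicate 1 or 3 or either wild-type array. Quantile normalization, median centring, a block for replicate number and a fit of only the strains compared ended it as well. With poly-A control scaling the sign of VPS30 turned (0.01, limma adjusted p = 0.96, range 0.026 to 0.96 under its alternatives).

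At the vacuolar end, ATG22, which exports amino acids from the vacuole, had 1191, 985 and 790.0 in the double mutant, against 693, 757 and 786 in the single mutant and 883 and 886 in the wild type. The double-mutant arrays all lay above the single-mutant arrays but spread on both sides of the wild type. ATG22 was at 0.34 (SE 0.12, limma adjusted p = 0.035) for the double over the single mutant. ATG15, the lipase that opens the delivered vesicles, was left out as dim. Its signal was 72.8, 34.7 and 50.6 in the double mutant, against 181, 163 and 156 in the single mutant and 250.5 and 243 in the wild type. With no filter the difference was -0.73 (SE 0.08, limma adjusted p = 8.1e-05) for the double over the single mutant.

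The other 7 genes left out as dim were ATG4, ATG9, ATG14, ATG16, ATG17, ATG20 and ATG29. ATG9, the membrane protein of the seed vesicles, had 193, 118 and 166 in the double mutant, against 206, 291 and 266 in the single mutant and 395 and 441 in the wild type. ATG14, which directs the kinase complex to autophagy, had 90.0, 98.8 and 78.1 in the double mutant, against 138, 123 and 116 in the single mutant and 197 and 175 in the wild type. With no filter ATG9 was at -0.42 (SE 0.12, limma adjusted p = 0.013) and ATG14 at -0.23 (SE 0.06, limma adjusted p = 0.0087) for the double over the single mutant. ATG16, the partner of the Atg12-Atg5 conjugate, was the dimmest member, with 19.4, 16.7 and 18.7 in the double mutant, against 31.98, 29.3 and 34.8 in the single mutant and 87.2 and 80.1 in the wild type. In all 8 dim genes, ATG15 included, every double-mutant array lay below every single-mutant array and these below both wild-type arrays, the order of 19.2% of all probe sets.

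With no filter all 8 were lower in the double mutant than in the single mutant, against 36.9% of all probe sets, with log2 fold changes from -0.73 for ATG15 to -0.14 for ATG16. Against wild type, 7 of the 8 were called lower in the single mutant, where 23.4% of all were, from -0.61 for ATG20 to -0.31 for ATG14. ATG4, the protease that matures Atg8, had 169, 158 and 131 in the double mutant, against 231, 236 and 268 in the single mutant and 323 and 285 in the wild type, and was not called between single mutant and wild type, at -0.22 (SE 0.09, limma adjusted p = 0.063). For the dimmest genes this scale understates the difference: the double-mutant mean of ATG16 was 21.9% of the wild-type mean, that of ATG29 25% and that of ATG17 26.9%.

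The wider pathway was read through 97 further genes of vacuolar proteases and cargo, vacuole fusion, nutrient signalling, transcription control, trafficking and vacuolar export. The 97 also hold VPS34, VPS15 and VPS30 of the phosphatidylinositol kinase complex. They are no ATG members by symbol, though VPS30 is also known as ATG6. With no filter 47 of the 97 were lower and 17 higher in the double mutant than in the single mutant, against 36.9% and 27.7% of all S. cerevisiae probe sets. The single mutant had 30 lower and 13 higher than the wild type, against 23.4% and 26.1% of all. Their shares lay between those of the ATG genes and those of all genes in both directions of the first comparison.

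**Figure D4:**
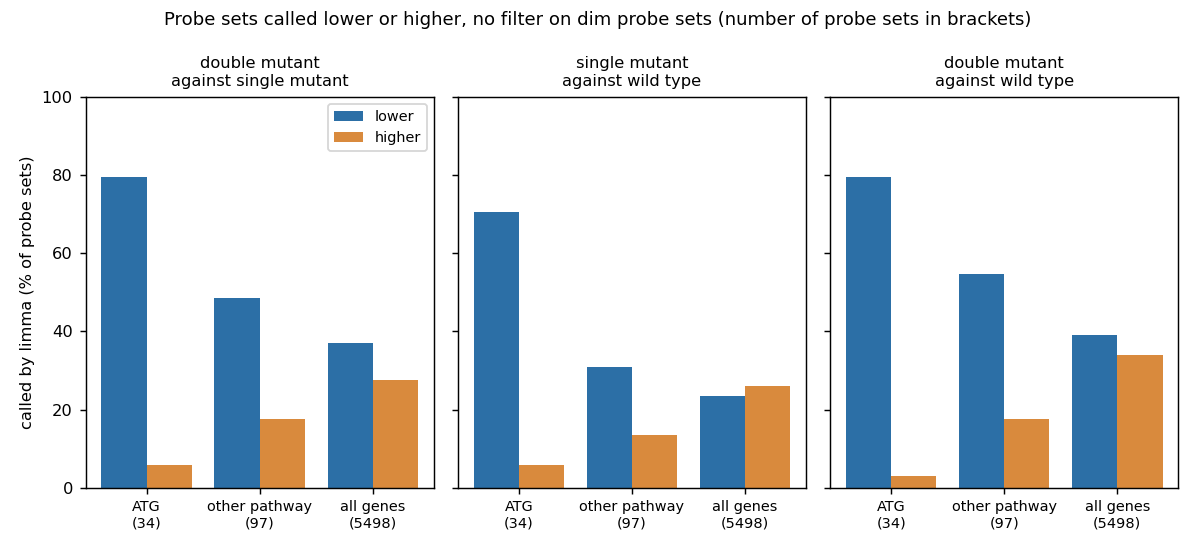
Percent of probe sets called lower (blue) and higher (orange) by limma at an adjusted p under 0.05 with no filter (vertical axis), for the 34 ATG genes, the 97 other pathway genes and all 5498 S. cerevisiae probe sets, in each comparison. The ATG genes have the tallest blue and the shortest orange bar in each panel.

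Counts and folds for these lists come from the fit without the dimmest probe sets. In that fit 35.8% of all tested probe sets were lower and 31.8% higher in the double mutant than in the single mutant, and 22.1% lower and 28.5% higher in the single mutant than in the wild type. Their median log2 fold changes ran from -0.38 for vacuolar export to -0.08 for trafficking in the double over the single mutant, against -0.02 for all tested probe sets. For the single mutant over the wild type they ran from -0.21 for transcription factors to -0.01 for vacuole fusion, against 0.01 for all.

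Among 11 genes of vacuolar proteases and cargo, 8 were lower and none higher in the double mutant than in the single mutant, against 35.8% and 31.8% of all tested probe sets. The aspartyl aminopeptidase gene APE4 was at -0.88 (SE 0.10, limma adjusted p = 9.6e-05) and the cysteine aminopeptidase gene LAP3 at -0.82 (SE 0.12, limma adjusted p = 3.6e-04). The single mutant had 2 of them lower and 1 higher than the wild type, against 22.1% and 28.5% of all, with AMS1, the alpha-mannosidase that Atg19 and Atg34 carry, at -1.20 (SE 0.19, limma adjusted p = 8.8e-04). The mean signal of AMS1 was 726 ± 242 (SD, n = 3) in the double mutant, against 1186 ± 20.8 (SD, n = 3) in the single mutant and 2889.7 ± 200.3 (SD, n = 2) in the wild type. DAP2, a vacuolar dipeptidyl aminopeptidase gene, was at -0.57 (SE 0.09, limma adjusted p = 7.9e-04) in the single mutant over the wild type. The higher gene was LAP3, at 0.55 (SE 0.14, limma adjusted p = 0.0089). In the double mutant over the wild type LAP3 was not called, at -0.27 (SE 0.14, limma adjusted p = 0.10).

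Of 16 vacuole fusion genes 11 were tested, and 5 were lower and 2 higher in the double mutant than in the single mutant, against 35.8% and 31.8% of all tested probe sets. VTI1, a fusion protein of the SNARE family, was at -0.74 (SE 0.07, limma adjusted p = 3.7e-05) and MON1, an activator of the vacuolar GTPase Ypt7, at -0.54 (SE 0.06, limma adjusted p = 9.0e-05). Against wild type, the single mutant had 3 lower and 2 higher, near the 22.1% and 28.5% of all, with NYV1, another SNARE gene, at -0.84 (SE 0.10, limma adjusted p = 2.1e-04) and SEC17, which recycles SNAREs, at -0.66 (SE 0.11, limma adjusted p = 0.001).

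Of 17 tested genes of TORC1, the nutrient-sensing kinase complex that holds autophagy down, and of its EGO and SEA regulators, 7 were lower and 1 higher in the double mutant than in the single mutant. The share of lower genes was 41.2%, near the 35.8% of all tested probe sets, while that of higher genes was 5.88%, against 31.8% of all. IML1, of the SEA complex, was at -0.79 (SE 0.07, limma adjusted p = 1.4e-05) and the TORC1 subunit gene KOG1 at -0.75 (SE 0.12, limma adjusted p = 4.8e-04). Relative to wild type, 5 were lower and 2 higher in the single mutant, against 22.1% and 28.5% of all, with the kinase gene TOR1 at -0.60 (SE 0.12, limma adjusted p = 0.0036) and SLM4, of the EGO complex, at -0.60 (SE 0.13, limma adjusted p = 0.0052). The call of SLM4 ended without wild-type replicate 1 (limma adjusted p of 2.7e-04 to 0.053 under its alternatives). Of 12 other kinase genes 7 were lower and 4 higher in the double mutant than in the single mutant, where 35.8% and 31.8% of all were. HOG1, the osmotic stress kinase, was at 1.01 (SE 0.07, limma adjusted p = 5.8e-06) and GCN2, the kinase that senses amino acid shortage, at -0.90 (SE 0.11, limma adjusted p = 1.4e-04). Of these kinase genes, in the single mutant relative to wild type, 4 were lower and 1 was higher, against 22.1% and 28.5% of all. The higher gene was TPK3, a catalytic subunit of protein kinase A, at 0.50 (SE 0.18, limma adjusted p = 0.042), and the cyclin gene PHO80 was at -0.43 (SE 0.08, limma adjusted p = 0.002). The TPK3 call ended when any single-mutant or wild-type array was left out. It also ended with quantile normalization, median centring and a block for replicate number (limma adjusted p of 6.3e-04 to 0.16 under its alternatives).

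Of 12 tested genes for transcription factors and cofactors that act on ATG genes, 4 were lower and 3 higher in the double mutant than in the single mutant, against 35.8% and 31.8% of all, so that neither share exceeded that of all tested probe sets. The stress factor genes MSN2 and MSN4 were at 0.74 (SE 0.07, limma adjusted p = 3.8e-05) and 0.69 (SE 0.15, limma adjusted p = 0.0027). Single-mutant levels were lower than wild type for 4 and higher for 2, against 22.1% and 28.5% of all. UME6 had 749, 651 and 861 in the double mutant, against 839, 985 and 930.4 in the single mutant and 396 and 356 in the wild type. Both mutants lay above the wild type and overlapped each other, and UME6 was at 1.06 (SE 0.11, limma adjusted p = 1.3e-04) for the single mutant over the wild type and -0.25 (SE 0.10, limma adjusted p = 0.052) for the double over the single mutant. Of the Ume6 partners, SIN3 was at -0.57 (SE 0.14, limma adjusted p = 0.010) for the single mutant over the wild type. For the double over the single mutant SIN3 was at -0.21 (SE 0.13, limma adjusted p = 0.18). RPD3 was at -0.12 (SE 0.08, limma adjusted p = 0.25) and -0.42 (SE 0.07, limma adjusted p = 9.3e-04) in the same comparisons. GIS1, a zinc-finger factor gene, was at -0.70 (SE 0.10, limma adjusted p = 5.4e-04) in the single mutant over the wild type.

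Among 14 trafficking genes 5 were lower and 4 higher in the double mutant than in the single mutant, shares of 35.7% and 28.6% that are near those of all tested probe sets, 35.8% and 31.8%. The sorting nexin gene SNX4, whose product pairs with Atg20, was at -0.72 (SE 0.09, limma adjusted p = 1.7e-04) and VPS13, a lipid transfer protein gene, at -0.58 (SE 0.08, limma adjusted p = 2.5e-04). Relative to wild type, in the single mutant 6 were lower and 4 higher, against 22.1% and 28.5% of all, with the TRAPP complex genes TRS85 at 0.84 (SE 0.08, limma adjusted p = 9.3e-05) and TRS65 at 0.82 (SE 0.17, limma adjusted p = 0.0043). Among the 9 genes listed under vacuolar export 4 were lower and 2 higher in the double mutant than in the single mutant, against 35.8% and 31.8% of all. Not all of the 9 are exporter genes: the list also holds AVT1, for uptake into the vacuole and among the lower genes, and the phospholipase gene PLB1. YPQ3, listed under vacuolar export, was at -1.65 (SE 0.27, limma adjusted p = 6.3e-04) and NCR1, a sterol transport gene, at -0.73 (SE 0.10, limma adjusted p = 1.9e-04). The 2 higher genes were YPQ1, at 0.57 (SE 0.07, limma adjusted p = 9.6e-05), and YPQ2, at 0.60 (SE 0.08, limma adjusted p = 2.0e-04). For the single mutant over the wild type YPQ3 was at -0.89 (SE 0.30, limma adjusted p = 0.035) and NCR1 at -0.78 (SE 0.11, limma adjusted p = 5.4e-04), and 3 of these genes were lower and 1 higher, against 22.1% and 28.5% of all. The YPQ3 call ended when any single-mutant or wild-type array was left out. It also ended with pseudocounts of 1 and 32 and with hybridization control scaling (limma adjusted p of 1.9e-04 to 0.13 under its alternatives). With poly-A control scaling the calls of VPS34, MON1 and VPS13 in the double over the single mutant, and of DAP2, SLM4 and PHO80 in the single mutant over the wild type, ended.

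Between the double mutant and the wild type, 36.6% of all tested probe sets were lower and 37.9% higher. The counts lower and higher were 7 and 0 of 11 for vacuolar proteases and cargo, 4 and 1 of 11 for vacuole fusion, 10 and 2 of 17 for TORC1 and its regulators and 7 and 4 of 12 for the other kinases. They were 4 and 3 of 12 for transcription factors, 7 and 4 of 14 for trafficking and 6 and 2 of 9 for vacuolar export. YPQ3 was at -2.54 (SE 0.30, limma adjusted p = 6.0e-05), AMS1 at -1.86 (SE 0.19, limma adjusted p = 2.0e-05) and NCR1 at -1.50 (SE 0.11, limma adjusted p = 2.7e-06). HOG1 was higher, at 1.18 (SE 0.08, limma adjusted p = 2.2e-06), while GCN2 was at -1.13 (SE 0.13, limma adjusted p = 4.5e-05), APE4 at -1.13 (SE 0.12, limma adjusted p = 2.5e-05) and NYV1 at -1.12 (SE 0.10, limma adjusted p = 9.3e-06). SNX4 was at -1.03 (SE 0.10, limma adjusted p = 2.3e-05), VPS13 at -0.999 (SE 0.09, limma adjusted p = 1.1e-05) and SEC17 at -0.85 (SE 0.11, limma adjusted p = 7.9e-05). TOR1 was at -0.95 (SE 0.12, limma adjusted p = 9.6e-05) and KOG1 at -0.63 (SE 0.13, limma adjusted p = 0.0019). With poly-A control scaling the calls of KOG1 and VPS15 against the wild type ended. Of the transcription factor genes, PHO4, whose product acts in the phosphate response, was at -0.93 (SE 0.14, limma adjusted p = 3.0e-04) and GIS1 at -0.87 (SE 0.10, limma adjusted p = 4.6e-05).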

How the data were processed

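Total RNA of 8 yeast samples was read on Affymetrix arrays. The authors deposited 1 linear signal intensity per probe set and array, made with the MAS5 method of GCOS, per the submitters' processing notes. The sources used here give no versions. The deposited arrays share a trimmed mean signal of 499.8, so values are relative to the rest of each array, and the number of arrays limits precision. Gene names came from the platform annotation and the RefSeq table.

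Tests ran on log2(signal + 121), where the pseudocount of 121 lies at the 10th percentile of the signals of S. cerevisiae probe sets, with limma 3.58.1 in R 4.3.3 (lmFit, eBayes with an intensity trend), 1 fit over the 3 strains. The dimmest 20% of 5498 S. cerevisiae probe sets were left out. P-values were adjusted by Benjamini-Hochberg over all 4398 tested probe sets, and calls used an adjusted p under 0.05. The procedure was run on simulated arrays with independent noise and a small set of probe sets changed by known folds. Calls in the real data were far more numerous, so that run does not measure how reliable they are. A 2-fold decrease is a log2 fold change of -1 or below among calls.

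The ATG members, the gene lists and the tests were chosen with earlier results of these data known. Array values were given for ATG8, ATG1, ATG9, ATG19 and ATG14, for every member called with a log2 change of at least 1 in either direction and for other members that the text describes. Of the other genes in each list, the called ones with the largest changes were named, at most 2 per list and comparison. SIN3 and RPD3 were given as well, as partners of Ume6. LAP3, UME6, YPQ1 and YPQ2 were also given in comparisons where this rule did not pick them, and AVT1 and PLB1 were named without fold changes. Of 138 list symbols 7 were not matched and are not analysed here. In all 19 alternatives were run, 2 of them added after seeing the data. Residuals of same-numbered arrays correlated at -0.093 to 0.142, and those of differently numbered arrays at -0.142 to 0.128. No pairing by replicate number was seen, but residuals of 2 or 3 arrays a strain cannot exclude one.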

Additional observations from a re-analysis of the deposited data

How the results depend on the processing

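Under 19 alternatives, 2 of them chosen after seeing the data (arrays scaled on poly-A or on hybridization control probe sets), the median log2 fold change of the tested ATG members stayed below 0 in each comparison. For the double over the single mutant it was -0.76 and -0.72 with pseudocounts of 1 and 32, -0.42 with quantile normalization, -0.48 with median centring, -0.48 with no filter, -0.74 without the dimmest 50% and -0.42 with poly-A scaling. For the single mutant over the wild type it was -0.25 with either control scaling. For the double mutant over the wild type it was -1.18 and -1.11 with these pseudocounts, -1.08 without the dimmest 50% and -0.68 with poly-A scaling. With 1 array left out the double over the single mutant gave -0.65 to -0.52, the single mutant over the wild type -0.38 to -0.33 and the double mutant over the wild type -1.09 to -0.89. Poly-A scaling moved the median of all tested probe sets to 0.19 in the double over the single mutant, 0.09 in the single mutant over the wild type and 0.31 in the double mutant over the wild type. Median centring moved the first to 0.11, and hybridization scaling to -0.12. Of all calls in the double over the single mutant 47.0% were higher, against 69.1% with poly-A scaling and 60.0% with median centring. For the single mutant over the wild type 56.3% were higher, against 75.2% with poly-A and 70.7% with hybridization scaling, and in the double mutant over the wild type 50.9% against 70.7% with poly-A scaling. ATG members called lower in the double against the single mutant numbered 12 of 15 tested without the dimmest 50%, where 871 of 2749 probe sets were lower. Of 26 tested, 15 were lower with quantile normalization, 17 with median centring and 14 with poly-A scaling. Among all 4398 tested probe sets 1306, 1173 and 714 were lower in these settings, against 1574 in the main fit. Members called higher numbered 1 with only the strains compared, with the replicate block and with hybridization scaling, and 1 to 2 with 1 array left out. For the single mutant against wild type, members called lower numbered 10 of 15 without the dimmest 50%, 7 with poly-A and 11 with hybridization scaling. All probe sets called lower in these settings numbered 578 of 2749, and 302 and 545 of 4398. With 1 array left out 10 to 21 members were lower, and 520 to 1156 of all 4398 probe sets. Members called higher numbered 1 without the dimmest 50% and 1 to 2 with 1 array left out. In the double mutant against the wild type 11 of 15 were lower without the dimmest 50%, where 925 of 2749 probe sets were. With poly-A scaling 16 of 26 were lower, where 807 of 4398 probe sets were. Members called higher numbered 2 with quantile normalization and 1 to 2 with 1 array left out. The filters on dim probe sets change which members are tested (15 without the dimmest 50%), and otherwise the cause was not tested. The replicate block, on numbers that are not known to pair the arrays, gave 19 lower and 1 higher member in the double against the single mutant, 13 and 2 in the single mutant against wild type and 19 and 1 in the double mutant against the wild type. Among all 4398 tested probe sets it gave 1528 lower and 1366 higher, 867 and 1166, and 1576 and 1620 in the same order. Signs turned for genes that were not called, and for VPS30. In the double over the single mutant ATG1 was 0.0026 with quantile normalization and 0.011 with poly-A scaling. ATG5 was 0.013, ATG7 0.088 and ATG13 0.16 with quantile normalization, 0.12, 0.034 and 0.11 with median centring, and 0.22, 0.10 and 0.17 with poly-A scaling. VPS30 was 0.0115 with poly-A scaling. In the single mutant over the wild type ATG7 was -0.068 with quantile normalization and -0.046 with median centring. In the double mutant over the wild type ATG7 was 0.02 with quantile normalization, and ATG5, ATG7 and ATG13 were 0.037, 0.18 and 0.026 with poly-A scaling. With 1 array left out the double over the single mutant ran from -0.40 to 0.019 for ATG1, -0.10 to 0.15 for ATG5 and -0.089 to 0.061 for ATG13. ATG7 ran from -0.10 to 0.12 in the single mutant over the wild type. In the double mutant over the wild type ATG7 ran from -0.20 to 0.019 and ATG22 from -0.0024 to 0.26. Each strain has 2 or 3 arrays, and the 8 members left out as dim are understated on the log2(signal + 121) scale.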
